A study of Mus musculus with 6 samples.

Results

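The mitochondrial genome gave 37 of the 46963 gene names in the count table, taken as every name that begins with mt-. They were 13 protein-coding genes, 2 ribosomal RNA (rRNA) genes and 22 transfer RNA (tRNA) genes. RNA was sequenced from splenic B-cells purified by removal of CD43+ cells, in wt mice, in mice that lack the Eμ enhancer of the immunoglobulin heavy chain (IgH) locus (Eμ-deficient, named EμMAR-deficient in the study's methods) and in mice that lack the 3′ regulatory region of the same locus (3′RR-deficient). The mice were males and females aged 8 to 12 weeks, with the deletions on the background of the wt strain. Each genotype gave 1 library of resting cells and 1 library of cells kept for 2 days with 5 μg per ml lipopolysaccharide (LPS), a bacterial cell wall component that activates B-cells, so that 6 libraries were compared. Each library was a pool of 2 mice by its label, while the methods count 4 mice in 2 pools for a genotype. The 2 sources also differ on the resting cells, which were kept in culture for 2 days by the labels and were collected ahead of stimulation by the methods. The deposited counts hold 1 library per genotype and state, so that a difference between 2 libraries has no replicate check here. A figure legend of the study describes means of 2 experiments with 3 mice per genotype.

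Mitochondrial DNA is a small circle that is transcribed from both strands into long precursors. The tRNAs lie between the other genes, and their excision frees the mRNAs and rRNAs. The mRNAs encode subunits of respiratory complexes I (the mt-Nd genes), III (mt-Cytb) and IV (the mt-Co genes) and of ATP synthase (the mt-Atp genes), whose other subunits are made from nuclear genes. The rRNAs and tRNAs serve the ribosomes inside the organelle. Activated B-cells are known to grow, divide and enlarge their mitochondrial mass. By the annotation, 28 of the 37 genes are read in the plus direction of the mitochondrial sequence and 9 in the minus direction, namely mt-Nd6 and 8 tRNA genes.

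The libraries held between 9111974 (3′RR-deficient, LPS) and 21998587 (wt, LPS) counts over genes, and spike-in RNAs, synthetic transcripts added in known amounts, took another 4.75% to 7.10% of all counts. All 8 B-cell markers were detected in every library, with summed levels of 4481 to 9717 counts per 1000000 (CPM). Ighm, a product of the locus that carries the deletions, made up 807 to 7310 CPM of this sum. In the model described with the LPS comparison 2 of the 8, Cd22 and Cd74, fell with LPS, near the share of 20.4% among all genes. Markers of T-cells summed to 16.6 to 34.7 CPM in resting libraries and to 0.854 to 4.46 CPM after LPS, and those of myeloid cells to 148 to 352 CPM and 22.3 to 32.9 CPM. The 6 erythroid markers summed to 19636 CPM in the Eμ-deficient resting library, to 3374 CPM in the wt one and to 3811 CPM in the 3′RR-deficient one, and to 55.6 to 665 CPM after LPS. In the same model all 6 T-cell, all 6 detected myeloid and all 6 erythroid markers fell with LPS, beside 20.4% of all genes. Their part in the mitochondrial levels was not tested. In such bulk RNA a change in the number of a cell type cannot be told apart from a change in the RNA per cell.

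Names beginning with mt- held 7.53% of gene counts in the wt resting library, 14.1% in the Eμ-deficient one and 8.87% in the 3′RR-deficient one. After LPS they held 13.9%, 9.35% and 3.21%. Most of these counts were rRNA (2.88% to 13.6% of gene counts), although the libraries were depleted of rRNA with a kit that also targets mitochondrial rRNA, so that these 2 genes show what the depletion left. The protein-coding genes as deposited held 0.335% to 0.802%. The 95% Wilson intervals of these shares, which hold only the error of counting because copies made in PCR are counted too, reach at most 0.0186 percentage points to either side.

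The level of several mRNAs cannot be read from their mt- names alone. A 4663-nt stretch of chromosome 1 (chr1:24611535-24616197 in GRCm38, minus strand) carries 7 annotated pseudogenes that match mitochondrial genes at 99% identity or more, and reads that fit both places were listed mostly under one of the names. For mt-Co2, mt-Co3 and mt-Atp6, 99.7% to 99.9% of the summed counts stood under the chromosome 1 names Gm28661, Gm28437 and Gm10925, and for mt-Nd3 98.1% to 98.5% stood under Gm28438. For mt-Co1 the copy Gm29216 covers only the last 483 nt of the gene and held 37.3% to 47.4%, with the lowest share in the wt LPS library and the highest in the 3′RR-deficient LPS library. Gm10222 (mt-Nd4l) and Gm28439 (mt-Nd4) held no more than 0.446% and 0.121%. These shares have 95% Wilson intervals of at most 0.811 percentage points to either side.

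**Figure D1:**
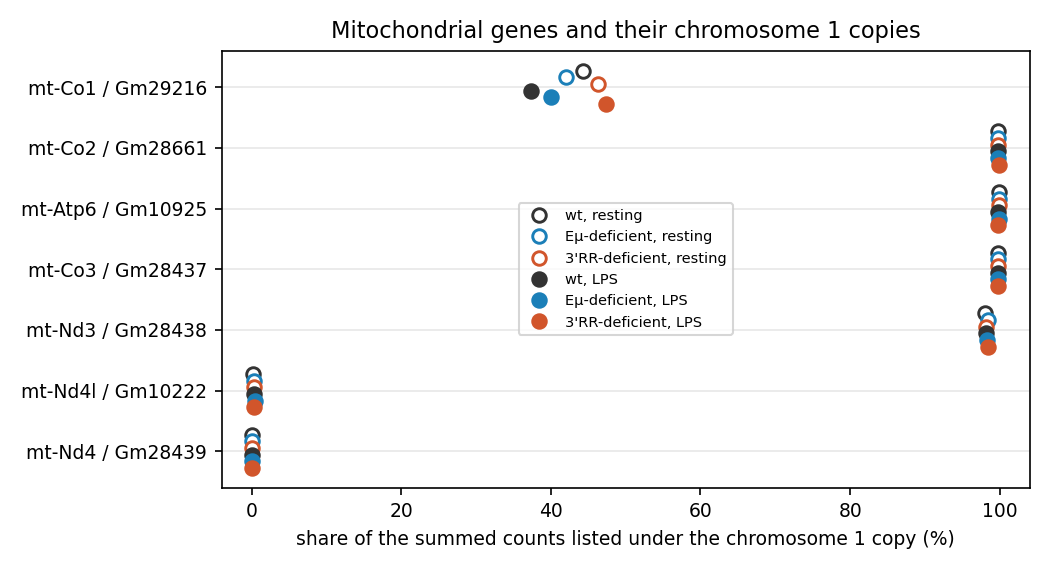
Share of the summed counts of a mitochondrial gene and its chromosome 1 copy that was listed under the copy (x axis, %), for the 7 pairs (y axis) in each library (open circles resting, filled circles LPS, colours by genotype). mt-Co2, mt-Atp6, mt-Co3 and mt-Nd3 sit at 98.1% or more, mt-Nd4l and mt-Nd4 at 0.446% or less, and mt-Co1 between 37.3% and 47.4%.

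The beginnings of mt-Nd3 (chrM:9459-9548) and mt-Co3 (chrM:8607-8696) are shown beside their copies (chr1:24613030-24613119 and chr1:24613882-24613971, minus strand), from the GENCODE M21 transcripts of GRCm38, because almost all counts of both genes depend on which of the 2 near-identical sequences a read was given to. Capitals mark the base at which mt-Nd3 and Gm28438 differ (T3C, the only difference in 345 nt compared, counted from the first base of the gene, mitochondrial base first). mt-Co3 and Gm28437 have no difference over the 783 nt aligned.
mt-Nd3: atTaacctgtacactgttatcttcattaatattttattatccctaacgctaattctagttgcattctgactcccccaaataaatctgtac
Gm28438: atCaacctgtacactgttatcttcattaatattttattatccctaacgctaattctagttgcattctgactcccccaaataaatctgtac
mt-Co3: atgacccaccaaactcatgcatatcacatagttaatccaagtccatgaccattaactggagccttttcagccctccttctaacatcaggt
Gm28437: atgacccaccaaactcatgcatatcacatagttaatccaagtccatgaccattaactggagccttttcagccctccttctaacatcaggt

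The counts of each copy were therefore added to its gene for all levels and library ratios given below, which raised the share of mitochondrial mRNA to 1.26%, 1.62% and 1.27% of gene counts in the resting wt, Eμ-deficient and 3′RR-deficient libraries and to 2.46%, 1.65% and 0.944% after LPS. A part of these reads may come from the nuclear copies, and these libraries cannot tell the 2 sources apart. mt-Atp8, which encodes a small ATP synthase subunit, had 0 to 5 counts per library and was the only protein-coding gene that did not reach 10 counts in 2 libraries. Its stretch of chromosome 1 has no annotated copy whose counts could be added. The other 12 mRNAs, both rRNAs and 6 tRNAs reached that minimum, 20 genes in all.

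Per kb of transcript, the mRNAs of complex IV led in most libraries. In wt resting cells mt-Co3 stood first at 3642 CPM per kb, followed by mt-Co2 at 2288, mt-Co1 at 1904 and mt-Atp6 at 1459 CPM per kb. mt-Nd3 (811), mt-Cytb (700.4), mt-Nd1 (668), mt-Nd2 (339.7), mt-Nd4l (271), mt-Nd4 (225), mt-Nd5 (176) and mt-Nd6 (75.3 CPM per kb) came after them. This order was much alike in all libraries, with Spearman correlations of the 12 levels per kb of 0.769 to 1.00 over the 15 pairs of libraries, a description across genes that share the same libraries. mt-Nd3 was the gene that moved most in it. It was first in the wt LPS library at 12262 CPM per kb, second in the Eμ-deficient resting library at 3445 and seventh in the 3′RR-deficient LPS library at 296 CPM per kb.

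**Figure D2:**
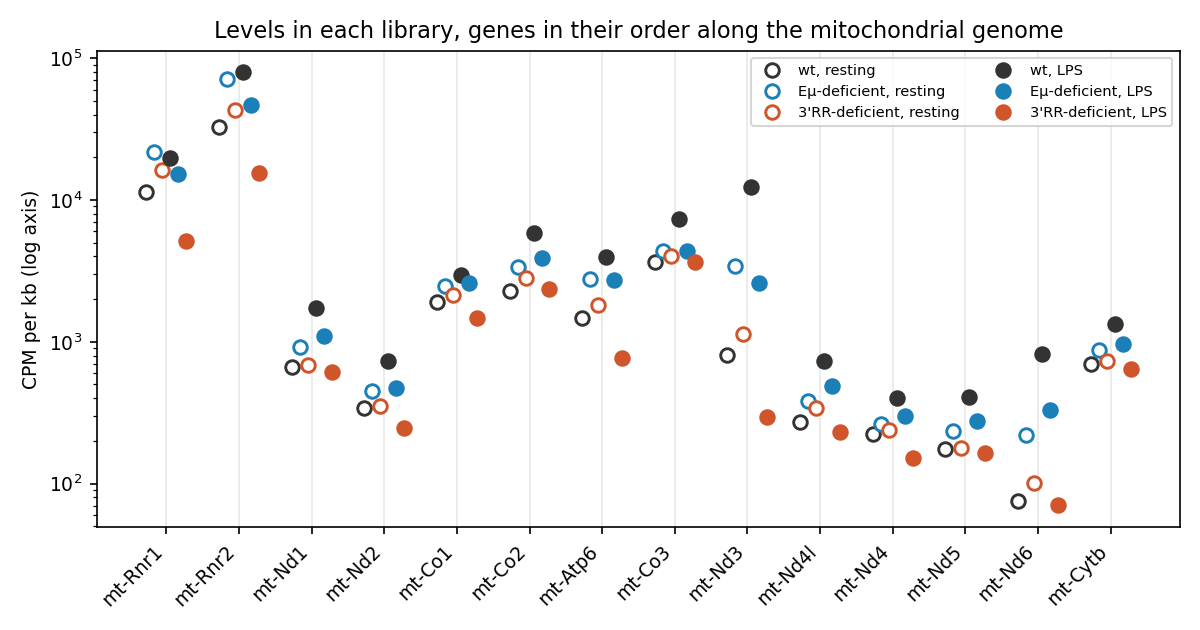
Level in CPM per kb of transcript (y axis, log scale) of the 2 rRNAs and 12 mRNAs in each library (open circles resting, filled circles LPS, colours by genotype), with the genes in genome order on the x axis and chromosome 1 copies added. The wt LPS library is highest for all 12 mRNAs, and the spread between libraries is largest for mt-Nd3, 41.5-fold, and mt-Nd6, 11.6-fold.

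The comparison of LPS-stimulated with resting cells asks how mitochondrial RNA stood after activation. In wt cells all 12 mRNAs were higher in the LPS library, with a median log2 ratio of CPM of 1.29 and a range from 0.64 (mt-Co1) to 3.92 (mt-Nd3). 9 of them had a ratio above 1, as had 22.7% of all 14600 genes tested. In Eμ-deficient cells the median was 0.15, and 10 were higher and 2 lower, from -0.41 (mt-Nd3) to 0.59 (mt-Nd6). 0 of them were above 1, beside 17.5% of all genes. In 3′RR-deficient cells all 12 were lower in the LPS library, with a median of -0.52 and a range from -1.94 (mt-Nd3) to -0.11 (mt-Nd5). 2 of these were below -1, a value passed by 20.9% of all genes. When libraries were scaled by the total of the spike-in RNAs, 10 of 12 were higher in wt (median 0.43), 11 in Eμ-deficient cells, and all 12 were lower in 3′RR-deficient cells. This scaling is no independent check, because single spike-ins moved its total. ERCC-00074 gave 674244 of 1600205 spike-in counts in the wt LPS library and 45545 of 465514 in the 3′RR-deficient LPS library. In wt cells the scaling shifted log2 ratios by -0.86, while the median spike-in had a log2 ratio of 0.28. With the trend on the GC content of transcripts over nuclear genes removed, all 12 were higher in wt (median 0.73) and in Eμ-deficient cells (median 0.36), and 8 were higher and 4 lower in 3′RR-deficient cells (median 0.26). The direction in 3′RR-deficient cells thus depended on this correction. Over all genes tested, 49.5%, 50.9% and 47.1% were higher after LPS in wt, Eμ-deficient and 3′RR-deficient cells.

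**Figure D3:**
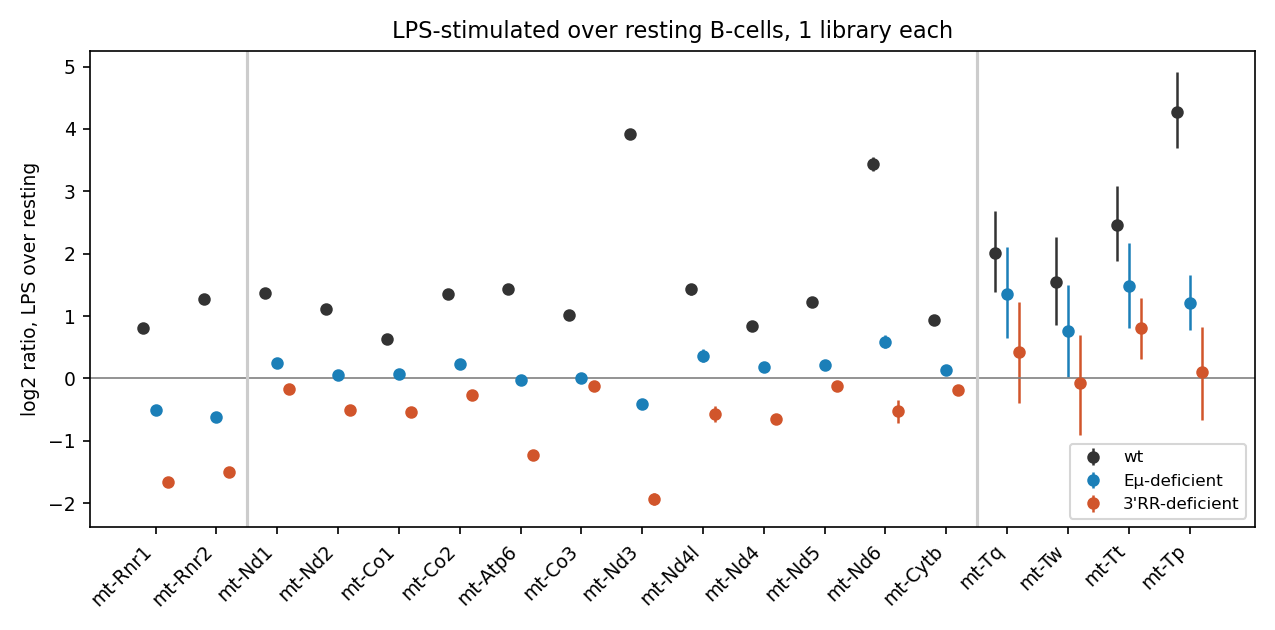
log2 ratio of CPM, LPS over resting (y axis), of the rRNAs, the mRNAs with copies added and 4 tRNAs (x axis, grey lines between the classes) in the 3 genotypes, 1 library per state. Bars are 95% intervals of the counting error alone; every wt point of the rRNAs and mRNAs is above 0 and every 3′RR-deficient one below it.

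Complex I, which takes electrons from NADH, has 7 of the mitochondrial mRNAs. mt-Nd3, a short membrane subunit, was measured at 282, 1199 and 394 CPM in the resting wt, Eμ-deficient and 3′RR-deficient libraries and at 4267, 899.6 and 103 CPM after LPS. The wt LPS library was thus far above the other 5, and the 3′RR-deficient LPS library the lowest. The LPS over resting log2 ratio was 3.92 in wt (95% counting interval 3.88 to 3.96), -0.41 in Eμ-deficient (-0.45 to -0.38) and -1.94 in 3′RR-deficient cells (-2.04 to -1.84). mt-Nd6, the only mRNA read in the minus direction (chrM:13552-14070), was at 39.1, 114 and 52.5 CPM in the same resting libraries and at 424, 171 and 36.4 CPM after LPS. Its ratios were 3.44 in wt (3.33 to 3.55), 0.59 in Eμ-deficient (0.49 to 0.69) and -0.53 in 3′RR-deficient cells (-0.71 to -0.35). No chromosome 1 copy of mt-Nd6 is annotated, so that the large spread between libraries was not limited to genes whose reads were shared with a copy.

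The other complex I mRNAs spread less. mt-Nd1 was at 639.6, 877 and 659 CPM in the resting wt, Eμ-deficient and 3′RR-deficient libraries and at 1646, 1045 and 585 CPM after LPS. For mt-Nd2 these levels were 353, 466 and 368 CPM, then 763, 486 and 258 CPM. mt-Nd5, the longest mRNA, was at 321, 430.3 and 324 CPM, then 749.7, 501 and 299 CPM. In these 3 genes the resting wt and 3′RR-deficient libraries lay close together, and the LPS libraries stood in the order wt, Eμ-deficient, 3′RR-deficient. mt-Nd4l and mt-Nd4, which share an overlap of a few bases on the genome, had the same order. mt-Nd4l was at 80.5, 113 and 102 CPM in resting and 217, 146 and 68.5 CPM in LPS libraries, and mt-Nd4 at 309.6, 365 and 329 CPM and at 555, 412 and 209.5 CPM.

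Among the catalytic subunits of complex IV, which reduces oxygen, mt-Co1 had the smallest LPS over resting ratio of the mRNAs in wt cells. Its levels were 2941, 3833 and 3296 CPM in the resting wt, Eμ-deficient and 3′RR-deficient libraries and 4584, 4029 and 2271 CPM after LPS, ratios of 0.64, 0.07 and -0.54. mt-Co2 was at 1565, 2288 and 1921 CPM in resting and at 3991, 2683 and 1605 CPM in LPS libraries. mt-Co3 was at 2855, 3408 and 3146 CPM and at 5798, 3425 and 2885 CPM. These last 2 genes were the only mRNAs whose lowest library was the resting wt library and not the 3′RR-deficient LPS library, by small margins. mt-Cytb, the complex III subunit that binds quinones, was at 801, 1008 and 833 CPM at rest and at 1526, 1104 and 734 CPM after LPS. mt-Atp6, which forms part of the proton channel of ATP synthase, stood at 994, 1878 and 1232 CPM at rest and at 2698, 1845 and 523 CPM after LPS, and it came after mt-Nd3 in its ratio in 3′RR-deficient cells, -1.24 (-1.28 to -1.19).

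Over the 3 genotypes, 10 of the 12 mRNAs were highest in the wt LPS library and lowest in the 3′RR-deficient LPS library, a pattern found in 4.95% of all genes tested. In an additive model of genotype and state over all 6 libraries (edgeR quasi-likelihood test on the deposited counts), 41.0% of all genes passed an adjusted p of 0.05 for LPS, 20.7% higher and 20.4% lower. Of the 12 mRNAs 0 passed. Their fitted log2 fold changes ran from 0.12 (mt-Co1, SE 0.34) to 1.09 (mt-Nd6, SE 0.66), with a median of 0.42 beside -0.03 over all genes, and Benjamini-Hochberg adjusted p of 0.211 to 0.799. 0 of them had an unadjusted p under 0.05, beside 50.3% of all genes, and DESeq2's Wald test called 0. The model, here and without single pairs, used the counts under the mt- names. For mt-Co2, mt-Co3, mt-Atp6 and mt-Nd3 these are the few reads not given to a copy. With the chromosome 1 copies added it again called 0 of the 12, for LPS and for both genotypes. The fitted LPS values were then 0.05 for mt-Atp6 (0.44 under the mt- name), 0.24 for mt-Nd3 (0.55) and 0.30 for mt-Co3 (0.50). They were 0.06 for mt-Co1 (0.12) and 0.43 for mt-Co2 (0.31). The sum of the mRNAs under their mt- names differed by 0.28 ± 0.74 (SD of the log2 ratio, n = 3 genotypes), so that the mean was smaller than the spread between genotypes. The fit depended on single pairs: without the 3′RR-deficient pair mt-Nd3 (log2 fold change 1.79, edgeR adjusted p = 0.000386) and mt-Nd6 (1.96, adjusted p = 0.00012) were called higher, and without the wt pair mt-Nd3 was called lower (-0.94, adjusted p = 0.0142).

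The rRNAs of the small (mt-Rnr1, 12S) and the large (mt-Rnr2, 16S) mitochondrial ribosomal subunit followed each other. mt-Rnr2 was at 52016, 113276 and 68506 CPM in the resting wt, Eμ-deficient and 3′RR-deficient libraries and at 125523, 74007 and 24333 CPM after LPS. mt-Rnr1 was at 10807, 20819 and 15432 CPM at rest and at 18919.5, 14649.6 and 4865 CPM after LPS. The wt library thus held more of both after LPS, and the other 2 genotypes held less. For mt-Rnr2 the log2 ratios were 1.27 in wt, -0.61 in Eμ-deficient and -1.49 in 3′RR-deficient cells, and for mt-Rnr1 they were 0.81, -0.51 and -1.67. With spike-in scaling the sign differed between the 2 genes in wt cells, with 1 higher and 1 lower. There were 4.44 to 6.63 counts of mt-Rnr2 for each count of mt-Rnr1, the most in the wt LPS library. In the additive model mt-Rnr1 (-0.46, SE 0.48, edgeR adjusted p = 0.466) and mt-Rnr2 (-0.30, SE 0.54, adjusted p = 0.677) did not pass the test, and 0 of the 2 had an unadjusted p under 0.05. Without the wt pair mt-Rnr1 was called lower (-1.09, adjusted p = 0.0314). The sum of both differed by -0.31 ± 1.39 (SD, n = 3 genotypes).

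The tRNAs, of 59 to 75 nt, gave very few counts. Reads of 150 nt are longer than these genes, which lie directly beside others, such as mt-Tt (from 15289) after mt-Cytb (to 15288). The counting options given in the methods name none for reads that overlap another gene as well. Reads that reach into a neighbouring gene may thus be left out of the counts. Counts under a tRNA name cannot tell free tRNA from precursors that still hold it, and they are a measure of neither. Differences in count between tRNA names may follow their neighbours. All 22 together had 121, 196 and 264 counts in the resting wt, Eμ-deficient and 3′RR-deficient libraries and 1054, 335 and 144 after LPS. mt-Tf, mt-Td and mt-Tk were at 0 in every library, which allows up to 3 counts under each name, or 0.144 to 0.334 CPM. mt-Td and mt-Tk, like mt-Tg and mt-Tr, lie within the run of genes from mt-Co1 to mt-Nd4 that is matched on chromosome 1. Reads given to chromosome 1 would not stand under these names, so that their counts set no upper limit on the RNA. The search for copies left out alignments as short as a tRNA. The other genes below the minimum had at most 26 counts in a library (mt-Tl1 in wt LPS). The 6 tRNAs that reached it are shown with the anticodon in capitals, from the GENCODE M21 transcripts, because they carried most of the tRNA counts. mt-Tp (proline, chrM:15356-15422) and mt-Tt (threonine, chrM:15289-15355) are next to each other on opposite strands.
mt-Tp: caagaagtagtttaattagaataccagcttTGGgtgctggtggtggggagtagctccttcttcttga
mt-Tt: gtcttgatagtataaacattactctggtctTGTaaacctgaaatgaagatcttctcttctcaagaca
mt-Tq: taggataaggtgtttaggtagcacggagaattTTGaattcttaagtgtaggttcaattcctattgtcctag
mt-Tw: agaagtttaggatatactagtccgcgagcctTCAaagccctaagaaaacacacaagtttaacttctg
mt-Tm: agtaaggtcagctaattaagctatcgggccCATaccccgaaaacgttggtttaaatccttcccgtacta
mt-Tn: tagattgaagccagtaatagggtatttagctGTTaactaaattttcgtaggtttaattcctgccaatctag

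mt-Tp, which lies last in the plus coordinates and is read in the minus direction like mt-Nd6, had 25, 69 and 52 counts at rest and 530, 127 and 24 after LPS. The log2 ratio of CPM was 4.27 in wt (95% counting interval 3.69 to 4.91), 1.21 in Eμ-deficient (0.78 to 1.66) and 0.10 in 3′RR-deficient cells (-0.66 to 0.82). mt-Tt had 29, 28 and 84 counts at rest and 176, 62 and 63 after LPS. Its ratios were 2.46 (1.89 to 3.08), 1.48 (0.81 to 2.18) and 0.80 (0.31 to 1.29), the only one of the 6 tRNAs with all 3 intervals above 0. mt-Tq, the glutamine tRNA, had 26, 25 and 38 counts and then 115, 51 and 22, with ratios of 2.01, 1.36 and 0.43. mt-Tw (tryptophan) had 24, 29 and 49 counts at rest and 77, 39 and 20 after LPS. mt-Tm (methionine) had 7, 10 and 15 counts and then 29, 13 and 1, and mt-Tn (asparagine) 0, 11 and 3 and then 35, 6 and 0. The summed tRNAs had ratios of 2.98 (2.71 to 3.27), 1.11 (0.85 to 1.37) and 0.34 (0.04 to 0.64) in wt, Eμ-deficient and 3′RR-deficient cells, so that they were higher after LPS in 3 of 3 genotypes, by 1.48 ± 1.36 (SD, n = 3). Singly, mt-Tp, mt-Tt and mt-Tq were higher in all 3 genotypes, 3 of the 6, as were 32.7% of all genes.

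In the additive model 2 of the 6 tRNAs rose with LPS, beside 20.7% of all genes. mt-Tt rose by a log2 fold change of 1.56 (SE 0.38, edgeR adjusted p = 0.0106), and it passed the test under 14 of 14 alternative settings with adjusted p of 0.000117 to 0.0231. mt-Tq rose by 1.29 (SE 0.41, adjusted p = 0.0313), and 11 of 14 settings called it, with adjusted p of 0.00563 to 0.123. The call was lost with spike-in scaling and without the wt or the Eμ-deficient pair. mt-Tp had a fold change of 1.83 (SE 0.68, edgeR adjusted p = 0.0563), and 7 of 14 settings called it, with adjusted p of 3.64e-07 to 0.0892. In the wt LPS library mt-Tp alone gave 530 of the 1054 tRNA counts. Set beside the mRNAs, the tRNA names gave 5.99, 9.05 and 10 counts per 10000 mRNA counts in the resting libraries and 19.5, 18.6 and 16.7 in the LPS libraries. The lowest LPS library thus lay above the highest resting library, with 3 libraries a state.

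Between genotypes, the mRNAs of the 3′RR-deficient and wt libraries were close at rest and far apart after LPS. At rest all 12 mRNAs were higher in the 3′RR-deficient library by a median log2 ratio of 0.15, with a range from 0.01 (mt-Nd5) to 0.48 (mt-Nd3), and 0 were above 1, where 5.14% of all genes were. With scaling by total gene count 6 were higher and 6 lower, and with spike-in scaling 5 were higher and 7 lower. With the GC trend removed 8 were higher and 4 lower. The rRNAs were higher at rest too, by 0.51 (mt-Rnr1) and 0.40 (mt-Rnr2), and the summed tRNAs by 0.92. mt-Tt was further from wt at rest (1.33, 95% counting interval 0.70 to 1.99) than after LPS. After LPS all 12 mRNAs were lower in the 3′RR-deficient library, by a median of -1.45, and 12 of 12 were below -1, where 12.5% of all genes were. The ratios ran from -1.01 (mt-Co3, interval -1.03 to -0.99) to -5.37 (mt-Nd3, -5.47 to -5.28), which is a 41.5-fold lower level of mt-Nd3. mt-Nd6 was 11.6-fold lower, mt-Atp6 and mt-Rnr2 5.16-fold each, and mt-Rnr1 3.89-fold. With spike-in scaling, which is no independent check, the 12 mRNAs were still all lower, with a median of -0.82. mt-Tp was 9.96-fold lower, while mt-Tt had a log2 ratio of -0.33 with an interval from -0.77 to 0.09.

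The additive model called 0.760% of all genes between 3′RR-deficient and wt cells, and 0 of the 12 mRNAs, 0 of the 2 rRNAs and 0 of the 6 tRNAs. Adjusted p was 0.820 to 0.924 for the mRNAs in edgeR's test. mt-Nd3 had a log2 fold change of -2.87 (SE 1.19), was the only mRNA with an unadjusted p under 0.05 (5.65% of all genes had one) and had an adjusted p of 0.820. It was called lower in 3 of 11 settings, with spike-in scaling (adjusted p = 0.0157), without a filter (6.29e-09) and with only the 4 libraries of both genotypes (0.00633). In the other 8 settings it was not called. mt-Nd6 had -1.77 (SE 0.82, edgeR adjusted p = 0.909). These fits used the counts under the mt- names, and with its copy added mt-Nd3 had -3.02 (SE 1.29). The summed mRNAs under their mt- names differed by -0.65 ± 1.04 (SD, n = 2 states), the rRNAs by -0.94 ± 1.93 and the tRNAs by -0.40 ± 1.87, each smaller than the spread between the states. DESeq2's Wald test called 0 genes of any of the 3 classes.

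In Eμ-deficient cells the mRNAs stood above wt at rest and below wt after LPS. At rest all 12 mRNAs were higher in the Eμ-deficient library, with a median log2 ratio of 0.44 and a range from 0.24 (mt-Nd4) to 2.09 (mt-Nd3). 2 of 12, mt-Nd3 and mt-Nd6 (1.54), were above 1, as were 12% of all genes. With spike-in scaling 3 were higher and 9 lower, and with the GC trend removed 7 were higher and 5 lower (median 0.02). mt-Rnr2 (1.12) and mt-Rnr1 (0.95) were higher too, under spike-in scaling as well. The Eμ-deficient resting library was the one with 19636 CPM of erythroid markers. In the additive model 6 of 6 of these markers were called higher in Eμ-deficient cells, beside 1.14% of all genes called in either direction. After LPS all 12 mRNAs were lower than in wt, by a median of -0.58, and 2 of 12 (mt-Nd3, -2.25, and mt-Nd6, -1.31) were below -1, where 4.09% of all genes were. With spike-in scaling 11 were lower and 1 higher. mt-Rnr2 was lower by -0.76 and mt-Rnr1 by -0.37 on the log2 scale.

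The additive model called 1.14% of all genes between Eμ-deficient and wt cells, and again 0 of the 12 mRNAs, 0 of the 2 rRNAs and 0 of the 6 tRNAs, with 0 unadjusted p under 0.05 (8.36% of all genes) and 0 calls by DESeq2's Wald test. For the mRNAs under their mt- names the lowest fitted value was -1.09 (mt-Nd3, SE 1.07, edgeR adjusted p = 0.912). The highest was 0.05 (mt-Co1, SE 0.41, edgeR adjusted p = 0.988). Both genotype comparisons used the same wt libraries, and the wt LPS library was the highest of the 6 for all 12 mRNAs.

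The order of the libraries was shared by RNAs that did not come from the cells. mt-Nd3, mt-Atp6 and mt-Rnr2 had the order 3′RR-deficient LPS, wt resting, 3′RR-deficient resting, Eμ-deficient LPS, Eμ-deficient resting and wt LPS from low to high, and 7 of the 35 spike-in RNAs with enough counts had the same order. One of them, ERCC-00074, was at 8618, 24457 and 11554 CPM in the resting wt, Eμ-deficient and 3′RR-deficient libraries and at 33868, 19755 and 5073 CPM after LPS. Others hardly moved, such as ERCC-00002 with 15157 to 20483 CPM. Between the 3′RR-deficient and wt LPS libraries the 35 spike-ins had log2 ratios from -3.23 to 1.54 (SD 1.27), and between the Eμ-deficient LPS and resting libraries from -0.38 to 0.15 (SD 0.13). In the first of these pairs mt-Nd3 (-5.37) and mt-Nd6 (-3.54) lay below the range of these 35 spike-ins, and the other 10 mRNAs lay inside it. In wt cells the LPS over resting ratios of the 35 spike-ins ran from -0.41 to 2.56, with mt-Nd3 and mt-Nd6 above them and the other 10 mRNAs inside. Spike-ins with low counts in any library are not in these ranges. ERCC-00164, for example, had 2 counts in the wt resting, 21 in the wt LPS and 0 in the 3′RR-deficient LPS library.

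**Figure D4:**
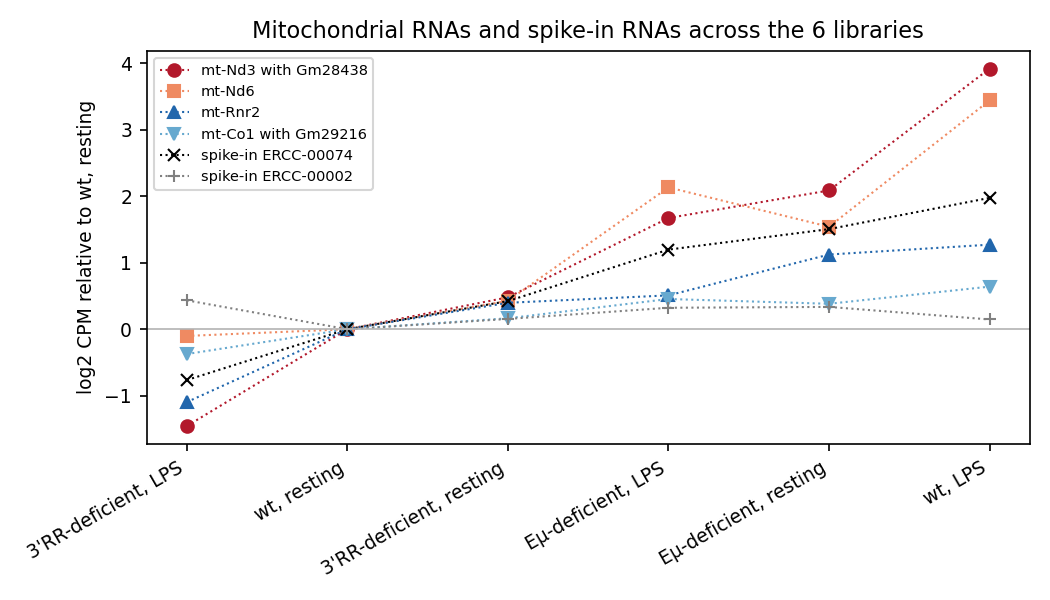
Level relative to the wt resting library (y axis, log2 of the CPM ratio) in the 6 libraries (x axis, ordered by the level of mt-Nd3) of mt-Nd3 and mt-Co1 with their copies, mt-Nd6, mt-Rnr2 and 2 spike-in RNAs; dotted lines only join points of 1 RNA. ERCC-00074 follows the order of mt-Nd3 and mt-Rnr2, while ERCC-00002 stays between 15157 and 20483 CPM.

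The base composition of the transcripts moved with the same libraries. Mitochondrial mRNAs have a GC content of 31.9% to 41.1%, and nuclear genes with transcripts under 40% GC had a median log2 ratio of -0.96 between the 3′RR-deficient and wt LPS libraries, beside 0.50 for those of 50% or more. For LPS over resting in wt cells these medians were 0.49 and -0.42. With the trend on GC content over nuclear genes removed, the 12 mRNAs were still all lower in the 3′RR-deficient LPS library than in wt, but the median was -0.33. mt-Nd3 kept a ratio of -3.90, mt-Nd6 of -2.16 and mt-Rnr2 of -1.10. With the trend on transcript length removed, 3 mRNAs were higher and 9 lower after LPS in Eμ-deficient cells (median -0.17). What moved low-GC transcripts and spike-ins between libraries was not tested.

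Nuclear genes of the respiratory complexes, matched by the name stems Nduf, Sdh, Uqcr, Cox and Atp5, moved mostly one way with LPS. Of 79 tested, 72 rose and 1 fell, beside 20.7% and 20.4% of all genes, with a median log2 fold change of 1.37 and quartiles of 0.97 and 1.70. The gene that fell, named here after its value was seen, was Atp5sl (-0.92, SE 0.24, edgeR adjusted p = 0.0151). It entered by its name stem alone, which does not show that a gene encodes a subunit of a complex. In the single pairs their median log2 ratio was 1.58 in wt, 1.28 in Eμ-deficient and 1.12 in 3′RR-deficient cells, with 75, 74 and 75 of 79 higher, beside 49.5%, 50.9% and 47.1% of all genes. The mitochondrial mRNAs had medians of 1.29, 0.15 and -0.52 in the same pairs. With the GC trend removed their medians were 0.73, 0.36 and 0.26, and the ratios of the nuclear genes were not corrected in this way. Between genotypes 0 of the 79 were called.

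**Figure D5:**
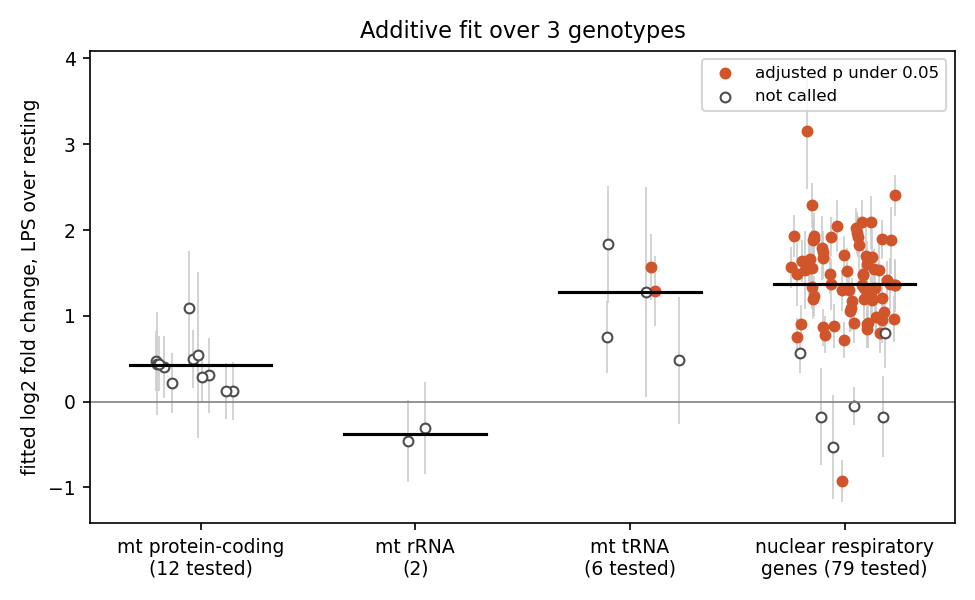
Fitted log2 fold change of LPS over resting (y axis) from the additive model over 3 genotypes for the 12 mitochondrial mRNAs, 2 rRNAs and 6 tRNAs tested and for 79 nuclear genes of respiratory complexes (x axis); grey bars are 1 SE, black lines medians, filled points have an adjusted p under 0.05. 72 of the 79 nuclear genes rose, 2 of the 6 tRNAs rose and 0 of the 12 mRNAs passed the test. The mRNA fits used the counts under the mt- names alone.

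Among factors that process, modify or stabilise mitochondrial RNA, 15 of 26 tested rose with LPS and 1 fell, beside 20.7% and 20.4% of all genes, with a median log2 fold change of 0.68. Slirp, which stabilises mRNAs of the plus direction together with Lrpprc, rose by 2.25 (SE 0.38, edgeR adjusted p = 0.00171), and Lrpprc by 0.67 (SE 0.21, adjusted p = 0.0329). Rexo2, an oligoribonuclease of the organelle, rose by 2.16 (adjusted p = 0.00017). Of the enzymes that free tRNAs from the precursor, Trmt10c rose by 0.95 (adjusted p = 0.0211) and Elac2 by 0.84 (0.0328). Trnt1, which adds the CCA end to tRNAs, rose by 1.17 (edgeR adjusted p = 0.00659). The gene that fell was Nsun4, an rRNA methyltransferase (-0.88, adjusted p = 0.0172).

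Of 16 transcription and DNA maintenance genes 3 rose and 0 fell, with a median of 0.29, and the count that rose was near the background of 20.7% of all genes. Tfb1m (1.25), an rRNA methyltransferase despite its name, Tefm (1.22), the elongation factor, and Peo1 (0.91), the DNA helicase, rose with edgeR adjusted p of 0.0102, 0.0248 and 0.0139. Polrmt, the RNA polymerase of the organelle, had a log2 fold change of 0.09 (SE 0.30, edgeR adjusted p = 0.83). Tfam, which packages its DNA and takes part in starting its transcription, had one of 0.31 (SE 0.23, adjusted p = 0.294). Of 10 regulators of mitochondrial biogenesis, Gabpa (0.72) and Pprc1 (0.66) rose, and Myc (-1.57), Ppargc1a (-1.33) and Esrra (-0.77) fell, with edgeR adjusted p of 0.00357 to 0.049. These 2 and 3 genes of 10 lie close to the 20.7% higher and 20.4% lower among all genes. Between genotypes 0 genes of these 3 lists were called. Of the 7 chromosome 1 copies 5 could be tested and 0 were called for LPS, with a median of 0.24.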

How the data were processed

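RNA of CD43-depleted splenic B-cells was made into stranded total RNA libraries (TruSeq, Ribo-Zero Gold) with spike-in RNAs and sequenced as read pairs of 150 nt. The extraction reagent is given differently in the labels and the methods, and 1 of the protocol texts gives another LPS unit. The authors aligned the reads to mm10 with STAR 2.4.0a (Ensembl 77) and deposited raw counts per gene name made with featureCounts (Subread 1.4.6-p1), with multi-mapping reads counted by their primary alignment.

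From these counts, the genes that reached 10 counts in 2 or more libraries were fitted in edgeR 4.0.16 (R 4.3.3) as genotype plus state, with TMM scaling and a threshold of 0.05 on the Benjamini-Hochberg adjusted p. The 3 genotypes are the only repeats of the LPS contrast, and the 2 states the only repeats of a genotype contrast, so that each coefficient is judged against the departure of the libraries from additivity and not against a spread between mice. CPM are on TMM-scaled library sizes. Pairs of libraries have log2 CPM ratios with exact binomial (Clopper-Pearson) 95% intervals of the counting error and no test. On simulated data for the LPS contrast with 14600 genes, 95.5% of 200 genes changed by a log2 fold change of 2 were called, and 3.54% of calls were unchanged genes. Whether these rates hold for the deposited libraries, whose LPS ratios differed between genotypes and with GC content, was not tested. DESeq2 1.42.0 was an alternative. Copies were found with BLAST 2.17.0 among GENCODE M21 transcripts (44131 of 46963 gene names matched, 94.0%), and a copy at 99% identity or more was added to its gene.

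All mt- mRNAs and rRNAs are named, tRNAs where they reached the minimum, and listed nuclear genes where they were called or highly expressed. Members and lists were chosen with earlier results of these data known. The list of pseudogene copies had 11 names, of which 9 were tested. It held 4 genes in error (Gm10719, Gm10720, Gm10721 and Gm10801), which matched no mitochondrial gene and were the only ones of it called higher with LPS. The 7 chromosome 1 copies were used in its place. The merging of copies and the removal of GC or length trends from single ratios, and of the length trend from fits, were chosen after seeing the data.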

Additional observations from a re-analysis of the deposited data

Results flagged for a closer look

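For both rRNAs and all 12 mRNAs tested, the LPS library was higher than the resting one in wt cells and lower in 3′RR-deficient cells. These results were listed because the 2 genotypes moved in opposite directions under the same treatment. With 1 library per genotype and state the difference was not tested. It depended on the scaling: with the GC trend removed 8 of the 12 mRNAs were higher after LPS in 3′RR-deficient cells too (median 0.26), and with spike-in scaling 2 of the 12 mRNAs and 1 of the 2 rRNAs were lower in wt cells. With the GC trend removed the signs stayed opposite for both rRNAs, mt-Rnr1 (0.26 in wt, -0.90 in 3′RR-deficient cells) and mt-Rnr2 (0.73, -0.69). They stayed opposite for 4 of the 12 mRNAs too, among them mt-Nd3 (3.39, -0.91). The log2 ratio in wt minus that in 3′RR-deficient cells was 2.47 for mt-Rnr1 and 2.76 for mt-Rnr2. Among complex I mRNAs it was 1.54 for mt-Nd1, 1.63 for mt-Nd2, 5.85 for mt-Nd3 with its copy, 1.49 for mt-Nd4 with its copy, 2.00 for mt-Nd4l with its copy, 1.34 for mt-Nd5 and 3.97 for mt-Nd6. It was 1.11 for mt-Cytb, and with the copies added 1.18 for mt-Co1, 1.61 for mt-Co2, 1.15 for mt-Co3 and 2.68 for mt-Atp6. For the summed mRNAs it was 1.47 under the mt- names and 1.69 with the copies added, and for the summed rRNAs 2.72.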

How the results depend on the processing

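The labels carry no replicate numbers. The LPS test paired the states within each genotype through the genotype term, and without this genotype block 2779 genes were called higher, 2617 lower and 0 of the 12 mitochondrial mRNAs. With 1 library per genotype and state, counting precision is high for mRNAs and rRNAs and limits tRNAs, and biological variation within a group was not measured. Of the main counts and class sums, 175 values under an alternative were taken as unchanged and 23 moved, all of them counts of genes called. The class sums were not stable for that. Without 1 genotype the mean LPS log2 ratio of the summed mRNAs under their mt- names ran from -0.11 to 0.62. That of the rRNAs ran from -1.06 to 0.30, so that both changed sign, and that of the tRNAs from 0.72 to 2.04. Genes called for LPS and higher (3016) numbered 1454 with spike-in scaling and 1907 to 3517 without 1 genotype. Genes higher in 3′RR-deficient cells (27) numbered 60 with spike-in scaling, 56 in DESeq2's Wald test, 135 without a filter and 51 with the 4 libraries compared, and lower ones (84) 204 without a filter and 127 with 4 libraries. Genes higher in Eμ-deficient cells (128) numbered 277 in the Wald test, 484 without a filter and 401 with 4 libraries, and lower ones (39) 76 with spike-in scaling, 63 in the Wald test, 121 without a filter, 25 with a filter of 1 CPM in 3 libraries and 102 with 4 libraries. Of the 12 mitochondrial mRNAs (0 called), those lower in 3′RR-deficient cells numbered 1 with spike-in scaling, 2 without a filter and 1 with 4 libraries, and those higher with LPS 1 with the GC trend removed, 1 without a filter and 0 to 2 without 1 genotype, while 0 to 1 were lower. The cause was not tested.

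Single fitted values kept their side in 477 cases, became called in 18, lost a call in 3 and changed sign in 27. For LPS, signs turned with spike-in scaling for mt-Nd2 (-0.018), mt-Co1 (-0.12) and mt-Nd4 (-0.12), with scaling by total gene count for mt-Co1 (-0.0037) and mt-Nd4 (-0.00065), and with the length trend removed for mt-Nd2 (-0.13), mt-Co1 (-0.11), mt-Co2 (-0.10), mt-Nd4 (-0.15) and mt-Cytb (-0.036). For 3′RR-deficient against wt they turned for mt-Tq (0.10) and mt-Atp6 (0.016) with the GC trend removed and for mt-Tw without mt genes in the TMM factors (-0.016) and with 4 libraries (-0.021). For Eμ-deficient against wt they turned for mt-Co1 with spike-in scaling (-0.16) and for mt-Nd6 with 4 libraries (0.10). Without 1 genotype the LPS values ran from -1.09 to 0.10 for mt-Rnr1, -1.05 to 0.28 for mt-Rnr2, -0.31 to 1.25 for mt-Tm, -0.22 to 0.54 for mt-Nd2, -0.22 to 0.41 for mt-Co1, -0.35 to 0.67 for mt-Co2, -0.49 to 1.01 for mt-Atp6, -0.94 to 1.79 for mt-Nd3, -0.10 to 0.84 for mt-Nd4l, -0.24 to 0.46 for mt-Nd4 and -0.025 to 0.48 for mt-Cytb. With log2(CPM + 1), 136 library ratios stayed close and 4 of low tRNAs moved.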
